A study of Mus musculus with 7 samples.

Results

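Interleukins are secreted proteins through which leukocytes, epithelium and stromal cells signal to each other, and most act through a receptor built of paired chains. Most of these receptors signal through JAK kinases and STAT transcription factors, while receptors of the IL-1 family use the adaptor MyD88. Soluble antagonists and decoy receptors hold some interleukins in check, and in the bowel the balance between both sides is known to shape colitis, with IL-10 as the classical protective cytokine. The genes described here are all genes on the array whose platform symbol starts with Il and a digit, except Il1b. They came to 44 genes of the 8251 with a single symbol, namely 18 cytokines, 21 receptor chains and 5 antagonists or decoys.

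The animals were female CD-1 mice, an outbred strain, 10 to 12 weeks old when the experiment began. One set was given 6 enemas of TNBS, the hapten trinitrobenzene sulphonic acid that is used to provoke colitis, in ethanol, and the other 6 enemas of saline, so TNBS and its ethanol vehicle cannot be told apart. TNBS mice were killed 3 days (week 6, RNA of 6 mice), 2 weeks (week 8, 4 mice), 4 weeks (week 10, 5 mice) or 6 weeks (week 12, 4 mice) after the enemas. The week 6 saline pool held RNA of 5 mice and was hybridised on 2 arrays, and 4 mice made up the later saline pool, of which 2 were killed at 2 weeks and 2 at 4 weeks. Each group was thus 1 pool of RNA from a stretch of colon 4 ± 0.5 cm above the anus, and the animals within a pool cannot be separated. The repeated array shows technical spread alone. In the matched comparisons below, TNBS at week 6 was set against the week 6 saline pool. TNBS at weeks 8, 10 and 12 was set against the later saline pool. Matching in time was partial: only 2 of the 4 later saline mice share the time of week 8 and 2 that of week 10. No saline mice were killed at the time of week 12.

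Signals are MAS5 units, scaled by the authors to the same target on each array. The median signal lay between 51.7 and 61.1, and 45.4% to 49.2% of probe sets read under 50. Of 14 colon epithelium markers 12 were on the array, 11 of them reached 100, and their summed signal was 21486 to 32355, so the labelled tissue showed its defining genes in every pool. Pancreas markers gave signal too. The 6 on the array summed to 4426 with TNBS at week 6 and 6937 at week 8, against 753.4 to 1041 on the saline arrays. With TNBS at weeks 10 and 12 they summed to 1004 and 432.4. Their part in the interleukin values was not tested. For beta-actin, whose 3' over 5' signal ratio tracks how intact and how fully labelled the RNA is, that ratio was 1.14 to 1.24 in the 3 arrays of week 6 and 0.799 to 0.819 in the 4 later ones. For Gapdh the same ratio was 0.912 to 0.942 at week 6 and 0.869 to 1.004 later, and so did not separate these arrays.

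Most interleukin genes gave a signal too low to measure in whole colon. Of the 44 genes, 10 (22.7%) reached a signal of 100 in at least 1 pool, 6 peaked between 50 and 100, and 28 (63.6%) stayed under 50 on all 7 arrays. Over all 8251 genes, 52.3% reached 100 and 29.2% stayed under 50. The nearest genes on either side of the limit of 100 were Il18bp, which peaked at 118.7, and Il6ra, which peaked at 89.8. Around the limit of 50 they were Il9 at 62.1 and Il2rb at 42.3. Probe sets differ in how well they bind their transcript, so a signal under 50 is not a measure of absence, and signals of different genes are not set against each other as levels.

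**Figure D1:**
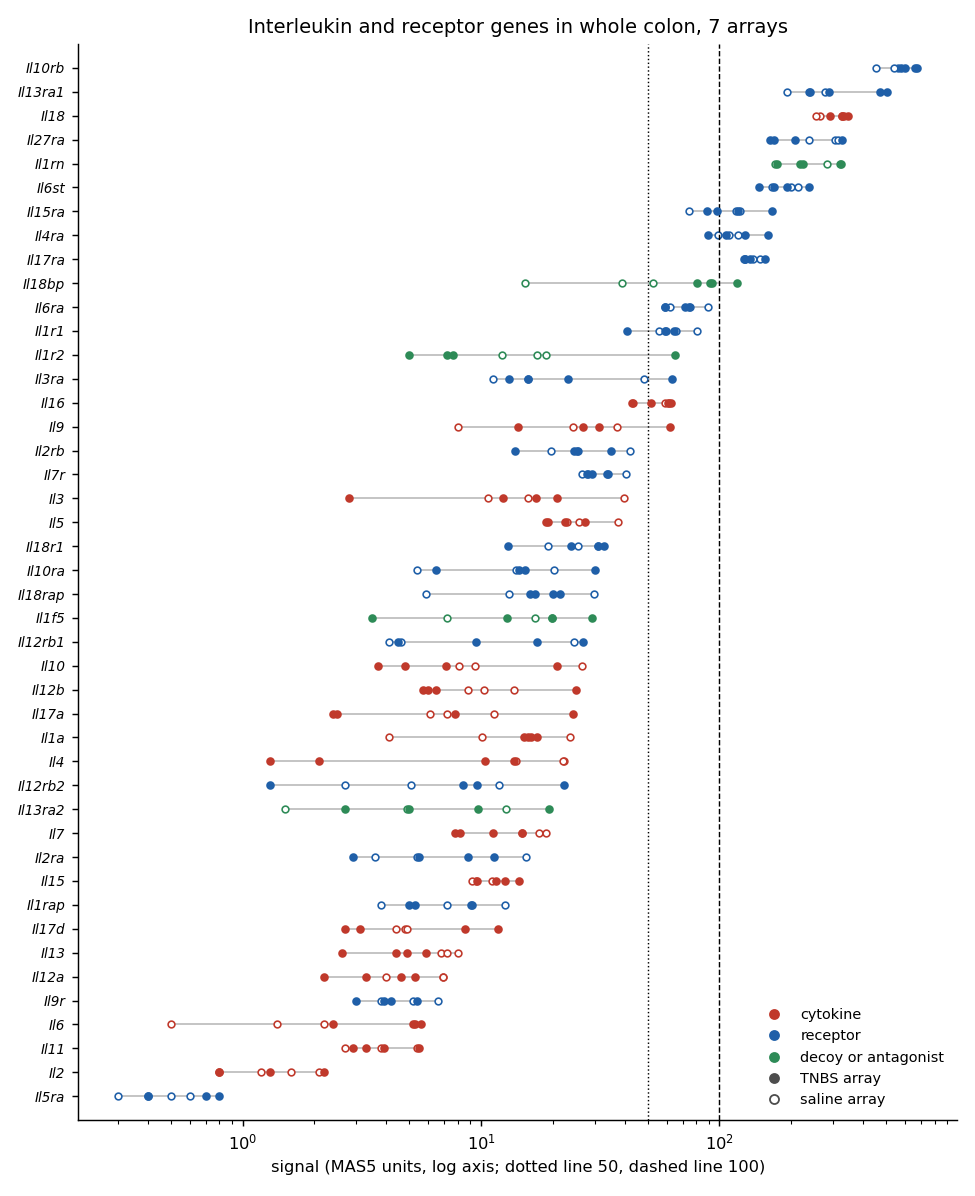
Signal of each of the 44 genes on a log axis in MAS5 units, with filled points for the 4 TNBS arrays and open points for the 3 saline arrays, coloured by role. Of these genes 10 pass the dashed line at 100, 6 peak between the dotted line at 50 and the dashed line, and 28 lie left of the dotted line throughout.

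The 28 genes that stayed under 50 were 15 cytokines, 11 receptor chains and 2 antagonists or decoys. Of 18 cytokines, 15 stayed under 50, namely Il1a, Il2, Il3, Il4, Il5, Il6, Il7, Il10, Il11, Il12a, Il12b, Il13, Il15, Il17a and Il17d, with a median highest signal of 22.95 over all 18. This group holds the signature products of the helper T cell subsets, Il4, Il5 and Il13 for type 2 cells and Il17a for Th17 cells, and the IL-12 subunits that drive Th1 cells. Il17a read 24.3 with TNBS at week 6 and 2.4 to 11.3 on the other arrays, and Il10 read 3.7 to 26.4. Il6, a main inducer of the acute phase, read 0.5 to 5.6. None of these values reached the floor of 50 used for differences, so no change was computed for them. The excepted cytokine, Il1b, differed from them, with 135.2 with TNBS at week 6 and 2.8 to 10.0 on the other arrays.

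Of 21 receptor chains, 11 stayed under 50, among them Il2ra and Il2rb, chains of the IL-2 receptor on T and NK cells, and Il7r, the receptor that keeps naive lymphocytes alive, which read 26.6 to 40.4. Il10ra, Il12rb1, Il12rb2, Il18r1, Il18rap, Il1rap, Il5ra and Il9r completed this group. Of the 5 antagonists and decoys, Il13ra2, the decoy receptor of IL-13, and Il1f5, the antagonist of the IL-36 receptor, stayed under 50. T lymphocyte markers were low on the same arrays: of 11 on the array 7 read under 50 throughout and 3 reached 100, and their summed signal was 315.1 to 503.1. B lymphocyte markers were less so: of 7 on the array 5 reached 100 and 1 read under 50 throughout, and they summed to 782.1 to 1376.

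The 6 genes that peaked between 50 and 100 fell into genes near the limit in every pool and genes with a single high array. Il6ra, the chain that binds IL-6, read 59.0 to 89.8, Il1r1, the signalling receptor of IL-1, 40.9 to 80.9, and Il16, a chemoattractant for CD4 cells, 43.0 to 62.9. In none of these 3 did the TNBS arrays separate from the saline arrays. The other 3 were above 50 with TNBS at week 6 alone. Il1r2, the decoy receptor that traps IL-1, read 64.8 there and 5.0 to 18.7 elsewhere. Il3ra, a receptor chain of mast cells and basophils among others, read 63.0 there, 48.3 in the later saline pool and 11.2 to 23.1 on the remaining arrays. Il9, a growth factor of mast cells, read 62.1 there and 8.0 to 37.1 elsewhere. A second probe set of Il1r2 read 37.2 with TNBS at week 6 and 35.3 and 36.5 on both saline arrays of week 6. The summed signal of 11 mast cell markers was highest in the same pool, at 4052 against 697.5 and 868.4 on the week 6 saline arrays. Most of this sum came from the proteases Mcpt1 (1712), Mcpt2 (1292) and Cma2 (562.2), while Kit, the stem cell factor receptor, read lower in this pool (148.7) than on the saline arrays (227.2 and 203.3). The mast cell sum was still 2334 at week 8 and 1158 at week 10, where Il1r2, Il3ra and Il9 read under 50. Of 8 neutrophil markers 3 were measured. S100a8 read 201.6 with TNBS at week 6 and 13.3 to 33.5 elsewhere, and S100a9 read 159.2 and 2.9 to 19.1. Csf3r, at 290.7, lay between its week 6 saline arrays (260.8 and 372.1). The part of either cell type was not tested.

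By family, 3 of 10 IL-1 family genes and 3 of 14 genes of the common gamma chain and IL-13 families reached 100. In the IL-10, IL-17, IL-6 and IL-12 families 1 gene each did, out of 3, 3, 4 and 5, and none of the 4 genes of the common beta chain family. Several receptors were thus read through 1 chain. Il10rb, the shared chain of the IL-10 and IL-22 receptors, was measurable while Il10ra, the chain particular to IL-10, was not. Il6st (gp130), the signalling chain of the IL-6 family, was measurable while Il6ra peaked at 89.8.

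Among the cytokines Il18 alone was measurable. IL-18 is made as a precursor in colonic epithelium and macrophages and is cut to its active form by caspase-1. Il18 read 263.8 and 254.4 on both saline arrays of week 6, 328.1 with TNBS at week 6, 333.1 in the later saline pool, and 289.6, 345.0 and 325.8 in the TNBS pools of weeks 8, 10 and 12. It was 1.27-fold higher in TNBS than in saline at week 6, but the later saline pool was 1.29-fold above the week 6 saline pool without TNBS. In the later comparisons it differed by 1.15-fold lower, 1.04-fold higher and 1.02-fold lower.

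Il18bp was the one member at least 2-fold different from saline in a matched comparison, at week 6, where 2.55% of the 4316 genes that reached 100 were at least 2-fold higher. Its product binds secreted IL-18 and keeps it from its receptor, and is known as a gene induced by interferon gamma. Il18bp read 39.2 and 15.3 on both saline arrays of week 6, 52.6 in the later saline pool, 118.7 with TNBS at week 6, and 80.4, 91.1 and 93.5 in the TNBS pools of weeks 8, 10 and 12. All 4 TNBS arrays lay above all 3 saline arrays, an order found in 4.96% of these genes, but Il18bp was among them through a TNBS value, so nothing is read from that share. After values under 50 were set to 50, it was at least 2.37-fold higher at week 6 and 1.53-fold, 1.73-fold and 1.78-fold higher at weeks 8, 10 and 12.

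Il18bp also was the only measured member that stayed under 100 in both saline pools, and it owed its place to the TNBS value of week 6. With saline at the floor, the filter fixed its week 6 difference at 2-fold or more, so that difference is a description. The other 9 measured members reached 100 in a saline pool. The 3 later differences of Il18bp were not fixed in this way. Differences at least as large were seen in 15.0% of all genes at week 8, 4.3% at week 10 and 3.3% at week 12. Between both saline pools they were seen in 9.1%, 4.2% and 3.5% of genes. With a floor of 100 these 3 differences were 0.00, since all values lay under it.

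Leukocyte markers were also higher with TNBS at week 6, and less uniformly later. All 8 pan-leukocyte markers were measured and above saline at week 6 (median log2 difference 0.88, 2 of them at least 2-fold higher), and their summed signal was 3364 against 1752 and 1783 on the saline arrays. At weeks 8, 10 and 12 their sum was 2174, 2042 and 2035 against 1628, and 8, 4 and 7 of the 8 lay above saline. The 11 macrophage and monocyte markers summed to 6744 at week 6 against 3133 and 3748, and to 3623, 4342 and 3673 later against 3293. Of the 8 that were measured, 8 lay above saline at week 6, 6 at week 8 and 7 at week 10, but 7 lay below it at week 12 (median log2 difference -0.17), where Cd14 alone was higher, at 2246 against 1684. No marker of either list read 0, and the lowest single values were 33.0 and 3.4. Their part in the Il18bp values was not tested, and in whole tissue a change in the number of cells and a change in RNA per cell cannot be told apart.

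The other measurable antagonist, Il1rn, encodes the IL-1 receptor antagonist, which occupies the IL-1 receptor without signalling. Il1rn read 283.6 and 321.7 on both saline arrays of week 6 and 324.1 with TNBS at week 6. It read 171.4 in the later saline pool and 174.5, 225.1 and 217.9 in the TNBS pools of weeks 8, 10 and 12. It was 1.07-fold, 1.02-fold, 1.31-fold and 1.27-fold higher than its matched saline pool in the order of weeks. The difference between both saline pools, 1.76-fold, was larger than any of these, so the direction at weeks 8 to 12 depended on the control: against the week 6 saline pool Il1rn was 1.73-fold, 1.34-fold and 1.39-fold lower.

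**Figure D2:**
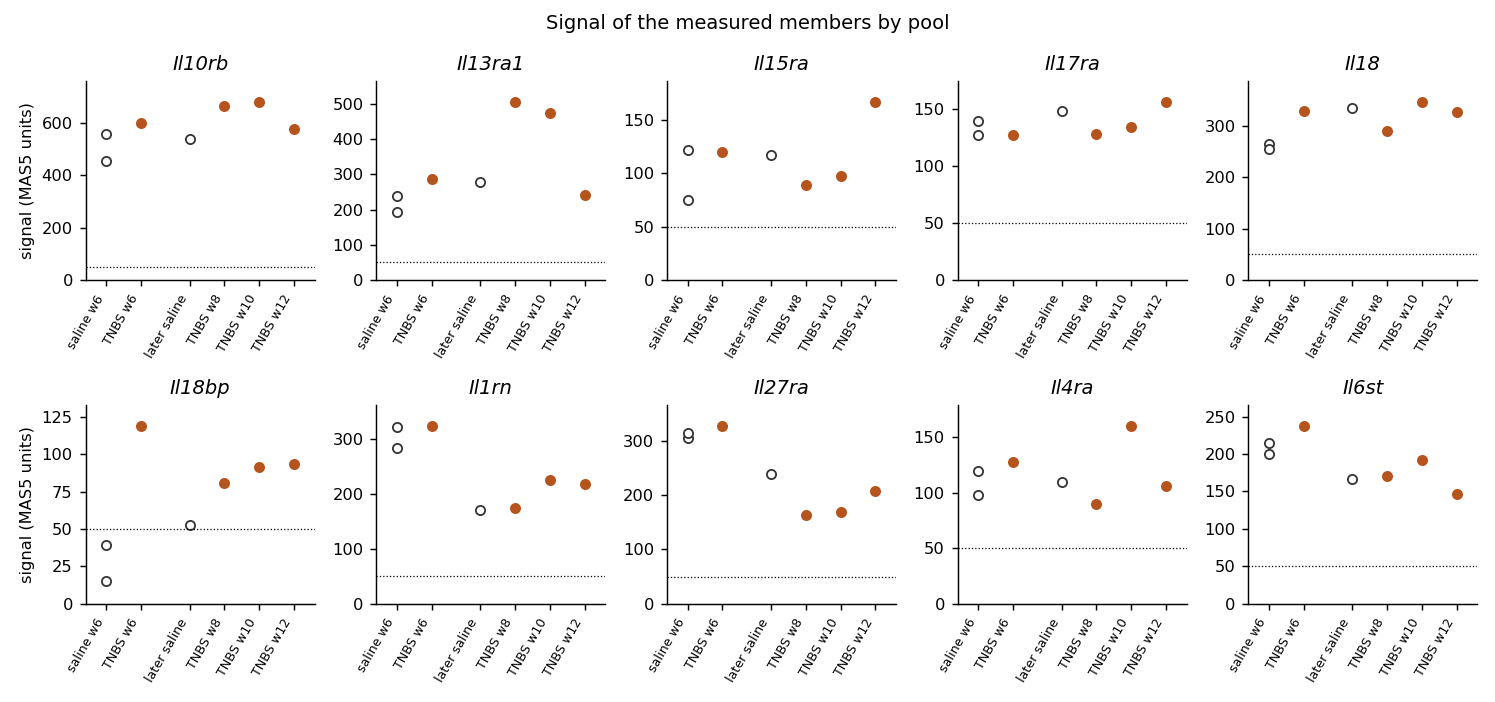
Signal in MAS5 units of the 10 measured genes by pool, with open points for saline arrays, filled points for TNBS arrays and a dotted line at 50. For Il18bp and Il10rb every filled point lies above every open point, and Il13ra1 is highest at weeks 8 and 10.

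Among the receptor chains the largest matched differences were those of Il13ra1, which pairs with Il4ra to form the type 2 receptor through which IL-4 and IL-13 signal in epithelium and smooth muscle. Il13ra1 read 237.5 and 192.0 on both saline arrays of week 6, 287.6 with TNBS at week 6 and 278.0 in the later saline pool. In the later TNBS pools it read 504.6 at week 8, 473.1 at week 10 and 240.9 at week 12. The pools of weeks 8 and 10 stood above all others, and the week 12 pool was back within the range of the saline arrays. Il13ra1 was 1.35-fold higher than saline at week 6, 1.82-fold at week 8 and 1.70-fold at week 10, and 1.15-fold lower at week 12.

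Differences as large as that of Il13ra1 were seen in 5.3% of all genes at week 8 and 5.0% at week 10, and between both saline pools in 3.1% and 4.8% of genes. With equal array medians, which moved the median gene by 0.18 on the log2 scale at week 8 and 0.14 at week 10, it was at least 2-fold higher at week 8. Against the week 6 saline pool it was 2.36-fold and 2.22-fold higher at weeks 8 and 10. The summed signal of mast cell markers was high in the same pools, at 2334 at week 8 and 1158 at week 10 against 641.1 in the later saline pool, but their sum was highest at week 6, and it was 388.6 at week 12. Of the 11 mast cell markers 5 were measured and 4 stayed under 50, with a lowest single value of 0.5. The sums again rested on Mcpt1, Mcpt2 and Cma2, each at least 2-fold above saline at weeks 6, 8 and 10, while Tpsb2, a tryptase, was below saline at weeks 8 and 10 (log2 difference -0.78 and -0.70) and Kit at week 8 (-0.21). Their part in the Il13ra1 values was not tested.

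Its partner Il4ra showed another order of pools. Il4ra read 98.4 and 119.3 on both saline arrays of week 6, 127.7 with TNBS at week 6, 110.1 in the later saline pool, and 89.6, 160.2 and 106.3 in the TNBS pools of weeks 8, 10 and 12. It was thus 1.46-fold higher at week 10 but 1.23-fold lower at week 8, where Il13ra1 was highest. A second probe set of Il4ra read 10.0 to 31.4 and gave no difference above the floor, and with the mean of both probe sets the gene no longer reached 100.

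Il10rb carries the shared chain through which IL-10 restrains macrophages and IL-22 acts on epithelium. Il10rb read 558.4 and 452.4 on both saline arrays of week 6, 537.7 in the later saline pool, and 599.7, 661.5, 677.0 and 575.7 in the TNBS pools of weeks 6, 8, 10 and 12. All 4 TNBS arrays lay above all 3 saline arrays, but by small steps: 1.19-fold, 1.23-fold, 1.26-fold and 1.07-fold in the order of weeks. Both week 6 saline arrays, made from the same RNA, differed by 1.23-fold, and 1 of the 4 differences was larger than that. This order held for 2 of the 10 measured members, Il10rb and Il18bp, and for 4.96% of the 4316 genes. Il18bp passed the filter through a TNBS pool, so nothing is read from this count. In the opposite order, with every TNBS array below every saline array, were 6.12% of all genes and no member.

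Il27ra, whose product pairs with gp130 to form the receptor of IL-27, read lower in the later TNBS pools. Il27ra read 304.9 and 314.9 on both saline arrays of week 6 and 327.0 with TNBS at week 6. It read 238.6 in the later saline pool and 163.4, 169.3 and 206.7 in the TNBS pools of weeks 8, 10 and 12. It was 1.06-fold higher than saline at week 6 and 1.46-fold, 1.41-fold and 1.15-fold lower at weeks 8, 10 and 12. The differences at weeks 8 and 10 were larger than the 1.30-fold between both saline pools, and that at week 12 was smaller. With equal array medians the log2 difference at week 8 was -0.37 in place of -0.55.

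Il6st, the partner chain of Il27ra, read 214.1 and 199.8 on both saline arrays of week 6, 237.3 with TNBS at week 6, 166.6 in the later saline pool, and 170.1, 192.6 and 146.0 in the TNBS pools of weeks 8, 10 and 12. It was 1.15-fold higher at week 6, 1.02-fold higher at week 8, 1.16-fold higher at week 10 and 1.14-fold lower at week 12, all less than the 1.24-fold between both saline pools. A second probe set of Il6st, lower in signal, had the opposite direction at weeks 6, 8 and 12. It read 65.5 and 87.5 on both saline arrays of week 6, 59.1 with TNBS at week 6, 54.9 in the later saline pool, and 50.4, 57.8 and 69.8 in the TNBS pools of weeks 8, 10 and 12.

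Il1rn, Il27ra and Il6st had in common that all 4 later arrays, with or without TNBS, read below all 3 week 6 arrays, for Il6st by its brighter probe set and not by the second. This order was found in 3 of 10 measured members and in 9.71% of the 4316 genes, and the opposite order in no member and 9.06% of genes. The beta-actin ratio given above separated the same arrays, while the Gapdh ratio did not. The part of RNA quality or labelling was not tested. Week and array set cannot be told apart here.

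Il15ra presents IL-15 to T and NK cells, and Il17ra is the receptor chain through which IL-17 acts on epithelium and fibroblasts. Il15ra read 74.7 and 122.2 on both saline arrays of week 6, 119.9 with TNBS at week 6, 116.9 in the later saline pool, and 88.8, 97.9 and 166.4 in the TNBS pools of weeks 8, 10 and 12. The repeated array alone spanned 1.64-fold, more than each of its 4 matched differences, of which the largest was 1.42-fold higher at week 12. Il17ra read 127.4 and 138.9 on both saline arrays of week 6, 126.8 with TNBS at week 6, 148.3 in the later saline pool, and 127.6, 133.7 and 155.6 in the TNBS pools of weeks 8, 10 and 12. Its values spanned 1.23-fold over the 6 pools. A second probe set of Il17ra varied more, with 83.6 and 82.2 on both saline arrays of week 6, 86.5 with TNBS at week 6, 85.5 in the later saline pool, and 46.2, 85.9 and 116.9 in the TNBS pools of weeks 8, 10 and 12.

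Counts of 2-fold differences among the 10 measured members are set beside those of all genes, and with 10 genes a count of 0 or 1 cannot be told from these shares. At week 6, 1 of 10 was at least 2-fold higher and none was 2-fold lower, where 2.55% and 0.996% of the 4316 genes were. In the later comparisons none of the 10 differed at least 2-fold, while 3.29%, 1.48% and 1.6% of all genes did in either direction at weeks 8, 10 and 12. The median log2 difference of the members was 0.25 at week 6, -0.09 at week 8, 0.27 at week 10 and 0.02 at week 12, against -0.019, -0.067, -0.004 and 0 over all genes. Both saline pools differed at least 2-fold in 1.81% of genes, and both arrays of the week 6 saline pool in 0.718%. None of the members did in either of these. Of 40 matched differences of the members, 13 were larger than both the gene's repeated array difference and its difference between saline pools, and 4 of these were those of Il18bp, whose repeated array values both lay at the floor. The same count was not made over all genes, so it shows nothing particular to the members. The 3 later comparisons share their saline pool.

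**Figure D3:**
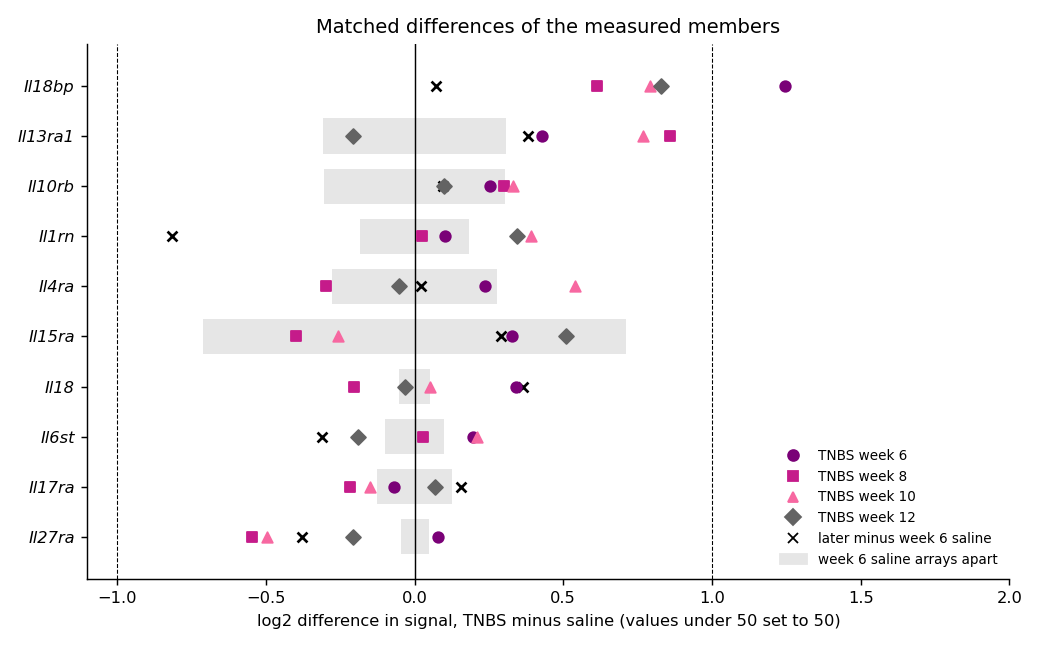
Log2 difference in signal, TNBS minus saline, of the 10 measured genes at weeks 6, 8, 10 and 12, with values under 50 set to 50. Grey bars span the difference between both week 6 saline arrays in either direction, crosses give the later minus the week 6 saline pool, and dashed lines mark 2-fold. The Il18bp point at week 6 is the only one past a dashed line, and all 4 points of Il15ra lie within its grey bar.

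A model over all pools asked whether the 4 TNBS pools differed from the 2 saline pools, with the control set (week 6 or later) as a covariate (limma, two-sided, Benjamini-Hochberg over the 4316 genes). It counts pools of different weeks as replicates, so change over time is part of its error. Differences between the mice of different pools, averaged within each pool, enter the same error and cannot be separated from time. No gene passed an adjusted p of 0.05, which makes the background 0%, and none of the 10 members did. At an unadjusted p under 0.05 there were 221 genes (5.12%) and 1 member, and with no intensity trend in the model 225 genes and none after adjustment.

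Il18bp had the smallest p of the members, with a log2 difference of 0.95 ± 0.26 (SE), a 95% interval of 0.36 to 1.53, an unadjusted p of 0.00576 and an adjusted p of 0.886 in limma, in the same direction in 4 of 4 comparisons. The filter chose this gene through one of the values the model compares. Without the week 6 TNBS pool the estimate was 0.75, with an adjusted p of 1 in limma. Il13ra1 was at 0.46 ± 0.30 (SE), with an interval of -0.24 to 1.15, and was higher in 3 of 4 comparisons. Il10rb was at 0.25 ± 0.16 (SE), with an interval of -0.12 to 0.61, and was higher in 4 of 4 comparisons. The estimate of Il27ra was -0.22 ± 0.20 (SE), with an interval of -0.67 to 0.23. The adjusted p-values of the 10 members in limma lay between 0.886 and 0.978. The other 6 estimates lay between -0.09 (Il17ra) and 0.19 (Il1rn), each with an interval that holds 0.

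**Figure D4:**
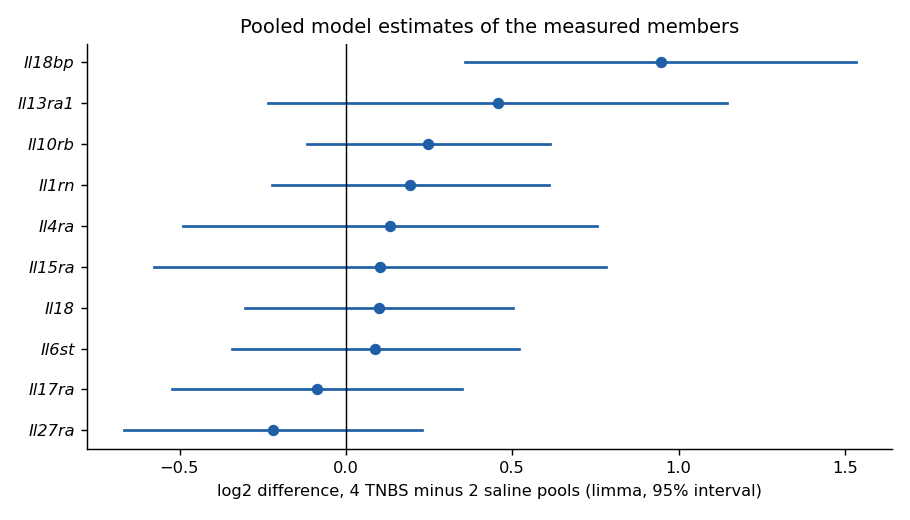
Log2 difference of the 4 TNBS pools from the 2 saline pools for the 10 measured genes, with points for the limma estimate and lines for its 95% interval. The interval of Il18bp, 0.36 to 1.53, is the one that does not hold 0, but the filter chose this gene through a TNBS value that the model compares. None of the genes passed after adjustment.

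The interaction asked whether the TNBS difference at week 6 was unlike that of weeks 8 to 12. No gene passed here (limma, adjusted p over the 4316 genes; 80 genes, 1.85%, at an unadjusted p under 0.05, and 84 with no intensity trend). No member had an unadjusted p under 0.05. The member with the smallest p was Il27ra, with 0.49 ± 0.40 (SE) and a 95% interval of -0.50 to 1.49.

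The promoter windows of Il18bp and Il13ra1 are shown because these members had the largest differences from saline. The windows run from 250 bases before to 50 after the gene's start in RefSeq's annotation of GRCm38.p6, and CpG dinucleotides, the sites of DNA methylation, are in capitals. The first lies at chr7:102018183-102018482 on the minus strand and the second at chrX:36111858-36112157 on the plus strand.
Il18bp: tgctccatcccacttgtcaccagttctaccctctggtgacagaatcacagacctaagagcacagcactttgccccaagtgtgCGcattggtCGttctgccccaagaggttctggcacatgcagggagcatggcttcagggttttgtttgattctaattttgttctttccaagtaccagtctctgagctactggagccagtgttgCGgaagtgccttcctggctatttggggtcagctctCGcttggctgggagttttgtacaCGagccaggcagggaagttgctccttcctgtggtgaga
Il13ra1: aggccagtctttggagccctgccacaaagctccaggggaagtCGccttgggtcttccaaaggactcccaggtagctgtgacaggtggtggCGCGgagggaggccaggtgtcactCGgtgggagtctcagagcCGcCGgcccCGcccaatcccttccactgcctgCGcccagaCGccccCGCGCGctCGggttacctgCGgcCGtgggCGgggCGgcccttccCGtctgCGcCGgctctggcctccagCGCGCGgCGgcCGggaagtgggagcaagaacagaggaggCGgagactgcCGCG
The windows differ in base composition. That of Il13ra1 held 28 CpGs and was 71.0% G or C, and 14.2% of all 32851 promoter windows held at least as many CpGs. That of Il18bp held 5 CpGs at 52.7% G or C, near the median of 7 CpGs. Neither window held TTCNNNGAA, a motif bound by STAT factors that reads the same on both strands and is in 8.3% of all windows. Of the 10 measured members 7 had a window, and none of these windows held it.

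Lists of genes related to interleukin signalling were read in the same way. Over all 8251 genes 52.3% reached 100, and of the members 22.7% did. The lists are short and were chosen with earlier results of these data known, so nothing is read from their counts. Of the kinases and factors of the JAK and STAT families, 7 of 9 on the array reached 100, and none passed the test in either direction in the pooled model. Stat3, the main factor downstream of gp130, read 435.4 and 420.1 on both saline arrays of week 6, 551.2 with TNBS at week 6 and 280.8 to 419.4 in the later TNBS pools, against 355.9 in the later saline pool. Tyk2, a kinase of the IL-12 and interferon receptors, was 2.10-fold lower at week 8, with 51.2 against 107.3. On the log2 scale this was -1.07, while its week 6 saline arrays, at 131.3 and 67.2, were 0.97 apart.

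Of 11 feedback inhibitors on the array 6 were measured, and none passed in the pooled model. Socs1, which blocks JAK kinases and is induced by interferon gamma, read 94.3 and 73.0 on both saline arrays of week 6 and 176.9 with TNBS at week 6. It read 62.4 in the later saline pool and 104.3, 135.0 and 56.5 in the TNBS pools of weeks 8, 10 and 12. It was 2.13-fold higher at week 6 and 2.16-fold higher at week 10, 1.67-fold higher at week 8 and 1.10-fold lower at week 12 (pooled log2 difference 0.78 ± 0.37 (SE), adjusted p 0.886 in limma). Its pools of weeks 6, 8 and 10 lay above all saline arrays and its week 12 pool below them.

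Of the adaptors and processing enzymes of IL-1 and IL-18, 13 of 16 on the array were measured, none at least 2-fold different in a matched comparison and none passing in the pooled model. Casp1, the protease that activates IL-18, read 481.8 and 423.8 on both saline arrays of week 6, 559.5 with TNBS at week 6, 686.0 in the later saline pool and 530.0 to 783.2 in the later TNBS pools. Relb, a subunit of NF-kappaB, was lower in all 4 comparisons, by 1.64-fold at week 6 and 1.99-fold at week 8. Of 19 related cytokines and receptors named without Il, 5 were measured and 8 stayed under 50. Osmr, the oncostatin M receptor that also pairs with gp130, was at least 3.44-fold higher at week 6, with 172.0 against 48.6 and 38.6 on the saline arrays, and at least 1.06-fold to 1.44-fold higher later. Stat3, Casp1, Relb and Osmr fall outside the naming rule and were chosen after their values were seen, and Osmr, like Socs1, passed the filter through TNBS pools alone. Of 10 lineage factors of interleukin-producing lymphocytes 2 were measured, Id2 and Nfatc2, neither of them 2-fold different in a matched comparison.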

How the data were processed

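The authors deposited a linear signal intensity for each probe set, computed with Affymetrix Microarray Suite 5.0 (MAS5) and brought to a target of 150 on each array, per the labels. The 2% trimmed mean was checked and was 150.1 on all 7 arrays. Detection calls were not used here, and the genome build of the probe sets is not given in the sources used here. Of 12488 probe sets, 66 controls were left out, and those with 1 symbol in the platform annotation of 2016 were used (10833, against 396 with several and 1193 with none). Both probe sets that an Il gene shares with another gene were left out, with signals of 2.3 to 24.5. Of several probe sets of a gene, the one highest on average on the log2 scale was used.

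Values under 50 were set to 50 before log2, the repeated arrays of week 6 saline were averaged as 1 pool, and the 4316 of 8251 genes with at least 100 in the highest pool were fitted in limma 3.58.1 (R 4.3.3) with 3 (pooled) or 2 (interaction) residual degrees of freedom. The model code was tested on simulated data with known shifts, which it recovered. These shifts were large against the simulated noise, so this checks the code and not the power to find differences here. Matched comparisons followed the series' design and have no test, with 2-fold as the counted size. Each measured member was named with all its values; of each pathway list, up to 4 genes at least 2-fold different and above the floor on both sides were. Members and lists were chosen with earlier results of these data known. Promoter sequences are RefSeq's.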

Additional observations from a re-analysis of the deposited data

Results flagged for a closer look

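Among the members outside the comparisons, because they stayed under 100, 4 had their highest signal in the week 6 TNBS pool, above 50 and above every saline array. They were Il1r2 at 64.8, Il3ra at 63.0, Il9 at 62.1 and Il16 at 62.9, and the nearest saline array read 18.7, 48.3, 37.1 and 61.3. Each rests on a single array of a single pool, and no test was made. The genes were picked for a high TNBS value, and the share of all genes that meet this rule was not computed. Nothing is therefore read from their number. The second probe set of Il1r2 read 37.2 in this pool and 35.3 and 36.5 on the week 6 saline arrays. Groups of 1 pool are too small to look for a single outlying sample.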

How the results depend on the processing

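The number of members that reached 100 was 9 or 10 under its 5 alternatives, with 9 for the mean of probe sets. The member at least 2-fold different at week 6, Il18bp, was not counted with a floor of 100 (0 members) or a filter of 200 (0 members), since it reads at most 118.7. Its log2 difference at week 6 was 1.92 when the floor was 25 and 0.25 when it was 100. At week 8 the count was 1, Il13ra1, with equal array medians and against the other saline pool, and at week 10 it was 1 against the other saline pool. No member was counted at week 12 under 11 alternatives. No member passed in the pooled model under 17 alternatives, and the adjusted p of Il18bp in limma ranged from 0.533 to 1. For the interaction 1 member, Il18bp, passed with a floor of 100, and 3 members, Il1r2, Il3ra and Il9, with no filter. In these cases every pool but the week 6 TNBS pool lay at the floor, so the fit saw no spread between pools.

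No paired analysis was possible because replicate numbers are given to the 2 arrays of 1 pool alone. Leaving out either week 6 saline array changed none of the counts. This says little of the matched counts, since the later differences do not use these arrays and Il18bp read under 50 on both. Signals near 50 limit what can be said of 34 of the 44 members, and with 1 pool per group no spread between mice is known.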
